A study of Drosophila melanogaster with 9 samples.

Results

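The eukaryotic translation initiation factor genes are described here as the rows of the deposited gene table whose name begins with eIF, apart from eIF4AIII, which encodes a core subunit of the exon junction complex (EJC). The rule gave 24 of the 8335 genes in the table, and 129 of the 60779 listed introns belong to them. All 24 were matched to a RefSeq gene of the fly, which gives 1 of them, eIF-5A, the current symbol eEF5. PolyA-selected RNA was sequenced from cultured ovarian somatic cells (OSCs) of Drosophila melanogaster, a line that keeps features of follicle cells, grown at 27°C. All cells were transfected with siRNAs. The siRNAs were directed against GFP, which serves as the control (siGFP), against Acn, which encodes a subunit of the EJC-associated ASAP complex (siAcn), or against tsu, the gene for Y14 in the EJC core (siTsu). Each of the 3 groups had 2 libraries, which the series calls biological duplicates, and no other genotype or agent distinguishes the groups. The comparisons ask how transcripts and their introns differ in cells that lack a core or a peripheral EJC subunit, and siAcn and siTsu share the siGFP libraries.

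Initiation factors bring the small ribosomal subunit to the start codon of an mRNA and join it to the large subunit. The eIF4 factors bind the cap, bridge it to the ribosome and unwind the leader. A complex of eIF2, GTP and initiator tRNA supplies the first amino acid, eIF2B recharges eIF2 with GTP, and eIF3 holds the assembly on the small subunit. eIF1A supports scanning, and eIF5 and eIF5B act in start codon recognition and subunit joining. In many animals, phosphorylation of eIF2alpha and inhibitors that hold eIF4E away from eIF4G lower translation under stress. In the fly ovary, proteins that bind eIF4E, such as Cup, hold maternal mRNAs silent until they are placed.

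Levels are given in RPKM, in which the authors scaled the reads of each gene by its length and by the library size. The libraries rest on 11.5 to 30.4 M reads, as recovered from the steps of the intron values, with the 2 siGFP libraries the deepest. The labelled targets were low where they should be. The tsu transcript was at 128 and 112 RPKM in siGFP, 111 and 94.6 in siAcn, and 9.77 and 9.16 in siTsu cells, and Acn was at 98.1 and 140.4, 16.8 and 16.5, and 96.3 and 105 RPKM. All 5 follicle cell markers examined were present, and their summed level ran from 1170 to 1389 RPKM in siGFP, from 826 to 1044 in siAcn, and from 518 to 685 in siTsu cells. Of the markers of other cell types, the hemocyte gene Hml stayed under 0.1 RPKM in every library. The 4 germline genes present in the table, of 5 listed, summed to 3.86 to 7.49 RPKM. The 3 fat body genes had no row in the gene table under the names used, nor had NimC1 (hemocyte), Mlp60A and up (both muscle). The hemocyte factor gene srp was at 8.60 and 8.63 RPKM in siGFP, 12.8 and 14.8 in siAcn, and 15.8 and 17.5 in siTsu libraries. In siTsu against siGFP cells, limma called 2 of the 5 follicle cell markers (piwi and zfh1) lower and srp higher, where 3.68% of all genes were called. The muscle gene Mhc was at 2.54 and 1.74 RPKM in siGFP and 3.37 and 3.20 in siTsu libraries. Among germline genes vas was lower, and aub and AGO3 were higher, in both siTsu libraries, while bam overlapped. Only AGO3 of these met the mean of 1 RPKM needed for the test, and it was not called. It was at 2.46 and 2.33 RPKM in siGFP, 3.02 and 5.11 in siAcn, and 3.49 and 5.05 in siTsu libraries. Of the follicle cell sum, piwi made up 612 and 447 RPKM in siGFP and 196 and 124 RPKM in siTsu libraries. The paper reports that a piwi intron is retained in Acn- and Tsu-depleted cells of this line. It also reports lower piwi RNA there, presumably through nonsense-mediated decay. The piwi level is thus not a marker of cell type alone here. All 5 markers were lower in siTsu than in siGFP libraries without overlap. Of these, tj was at 442 and 401 RPKM in siGFP and 274 and 217 in siTsu libraries. The part of these shifts in the results below was not tested. In bulk RNA, fewer cells of a type and less RNA per cell cannot be told apart.

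Most initiation factor transcripts were abundant in the control cells. Their median in siGFP was 159 RPKM, against 20.2 RPKM over all genes of the table, and 15 of the 24 lay in the top 10%. In siGFP, 16 members exceeded 100 RPKM, 6 lay between 10 and 100 RPKM, and 2 lay under 10 RPKM. The spread within a complex varied. The 5 eIF3 subunits differed by 1.58-fold between the lowest and the highest siGFP mean, the 5 eIF2B subunits by 3.08-fold and the 3 eIF2 subunits by 5.14-fold, whereas members of the eIF4 group ran from 0.51 RPKM for eIF-4B to 1155 RPKM for eIF-4a.

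**Figure D1:**
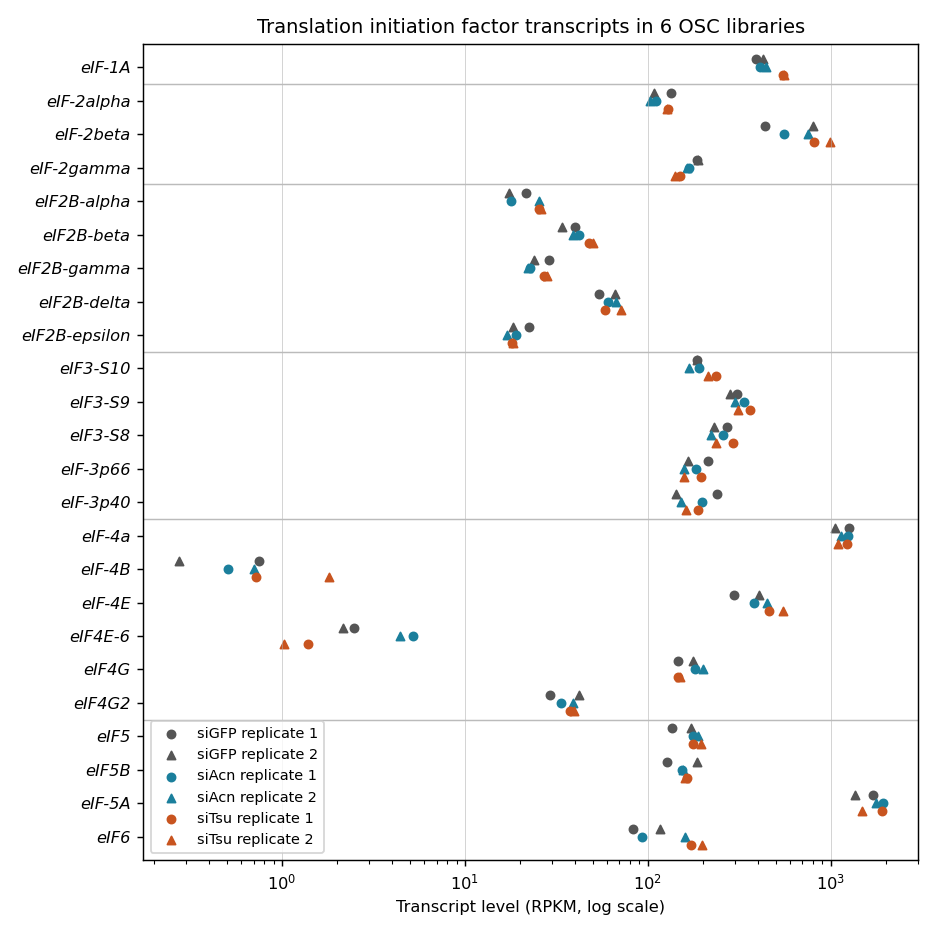
Transcript level of each of the 24 initiation factor genes (RPKM, log axis) in the 6 polyA libraries, ordered by complex. Colours mark the siRNA and symbols the replicate. eIF-5A and eIF-4a lie between 1051 and 1936 RPKM in every library, the eIF2B subunits lie between 16.9 and 71.8 RPKM, and eIF-4B and eIF4E-6 lie far below the others.

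In Acn-depleted cells, no initiation factor transcript passed the test. Of the 23 members with a mean of at least 1 RPKM, limma called 0 at an adjusted p of 0.05 and 1, eIF4E-6, fell below an unadjusted p of 0.05, in the higher direction (3.29% of all genes higher and 4.32% lower). Over all 7362 genes tested, 0.0679% were called in either direction. The members' median log2 change was 0.06, against -0.05 over all genes, and 22 of 23 changed by less than 0.5 on the log2 scale of RPKM + 1. The libraries of the 2 groups did not overlap for 4 members that were higher (eIF4E-6, eIF4G, eIF5 and eIF-5A) and 2 that were lower (eIF-2gamma and eIF2B-gamma) in siAcn cells. These shares, 17.4% and 8.70%, stood beside 11.8% and 20.8% of all genes.

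In tsu-depleted cells, more members lay above the control, but none passed the test. limma called 0 of 23, while 3.68% of all genes were called. At an unadjusted p under 0.05, 4 members were higher (eIF6, eIF-4E, eIF-1A and eIF2B-beta) and 2 were lower (eIF-2gamma and eIF4E-6), beside 8.07% and 16.4% of all genes. The median log2 change of the members was 0.12, against -0.09 over all genes, and 17 of 23 values were above 0. Libraries did not overlap for 9 members that were higher, which is 39.1% of the members and compares with 20% of all genes. They did not overlap for 2 that were lower, which is 8.70% and compares with 35.2% of all genes. The 9 were eIF-1A, eIF-2beta, eIF2B-alpha, eIF2B-beta, eIF3-S10, eIF3-S9, eIF-4E, eIF5 and eIF6.

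**Figure D2:**
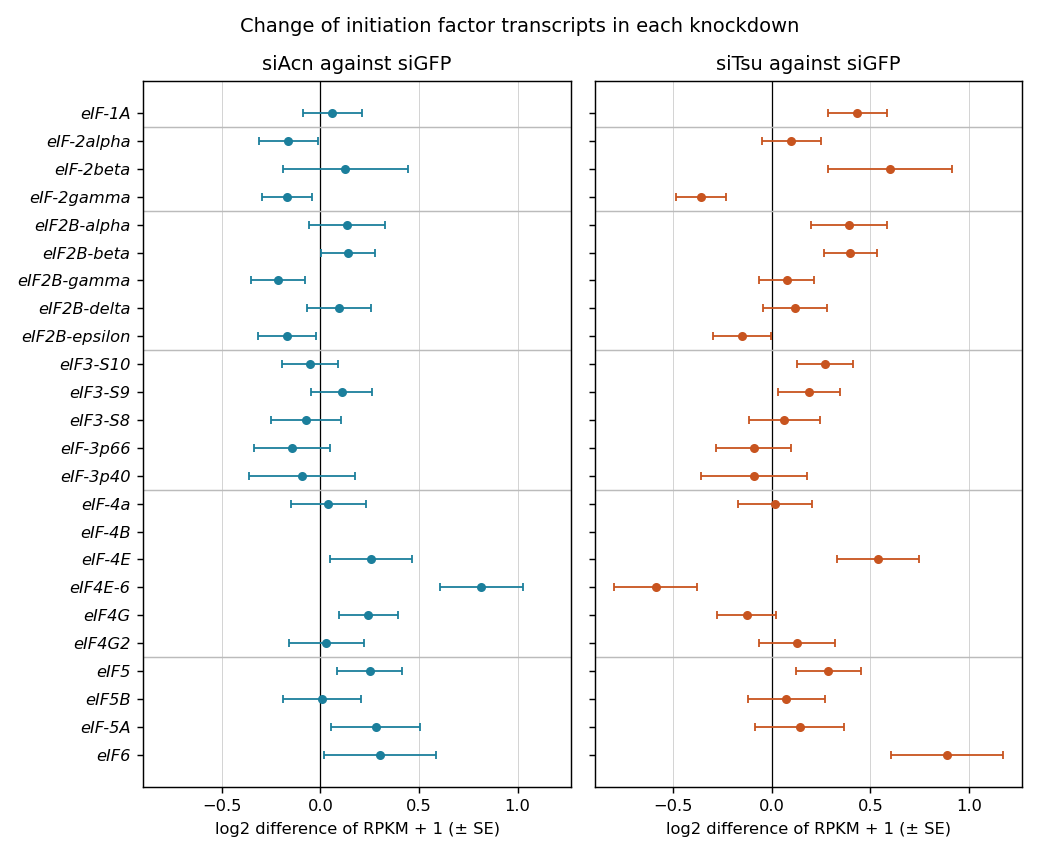
Difference of log2(RPKM + 1) between each knockdown and siGFP for the 23 tested members, with bars of ± 1 standard error from limma (2 libraries per group). The left panel holds siAcn and the right panel siTsu; eIF-4B, below the filter, has no point. The siAcn values lie between -0.22 and 0.82, and the siTsu values between -0.59 and 0.89.

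eIF-1A, the scanning factor, lay higher in both siTsu libraries, without a call. It stood at 389 and 428 RPKM in siGFP, 409.7 and 443 in siAcn, and 547 and 557 in siTsu libraries. Both siTsu values lay above the 4 others, which overlapped with each other. The log2 change in siTsu cells was 0.43 ± 0.15 (SE), with an adjusted p of 0.142 by limma, and in siAcn cells it was 0.06 ± 0.15.

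The 3 subunits of eIF2, which carries the initiator tRNA, differed in direction, and none was called. eIF-2beta, the subunit with the highest level, was at 438 and 801 RPKM in siGFP, 558 and 750.2 in siAcn, and 809 and 996 in siTsu libraries. The siGFP libraries differed by more than the group means of siGFP and siAcn did, and the siTsu change of 0.60 ± 0.32 on the log2 scale had an adjusted p of 0.291. eIF-2gamma, the subunit that binds GTP and the tRNA, was at 186 and 189 RPKM in siGFP, 169 and 165 in siAcn, and 151 and 142 in siTsu libraries. Here the groups were ordered without overlap, siGFP highest and siTsu lowest, and the log2 change was -0.36 ± 0.13 in siTsu (adjusted p = 0.148, limma) and -0.17 ± 0.13 in siAcn cells. In flies this gene shares its first exons with Su(var)3-9, a histone methyltransferase gene listed at 34.9 and 38.0 RPKM in siGFP and at 31.5 and 26.3 RPKM in siTsu, and how shared reads were assigned is not given in the sources used here. eIF-2alpha, the subunit phosphorylated under stress, lay between 103 and 133 RPKM in all 6 libraries, with siTsu (129 and 128) inside the range of siGFP (133 and 108).

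The exchange factor eIF2B was represented by all 5 subunits, all below the eIF2 and eIF3 subunits in level. eIF2B-delta was the highest, at 54.2 and 65.9 RPKM in siGFP, 60.5 and 67.3 in siAcn, and 58.7 and 71.8 in siTsu libraries, and the 3 groups overlapped. eIF2B-beta stood at 40 and 34, 42.3 and 39.2, and 47.5 and 50.4 RPKM, so that both siTsu values were above the rest (log2 change 0.40 ± 0.14, adjusted p = 0.140, limma). eIF2B-gamma had the lowest log2 change of all members in siAcn cells, -0.22 ± 0.14 (adjusted p = 0.812). It was at 28.9 and 23.7 RPKM in siGFP, 22.7 and 22.2 in siAcn, and 27.2 and 28.1 in siTsu libraries. The siAcn values were the lowest, and those of siTsu lay within the siGFP range. eIF2B-alpha and eIF2B-epsilon, between 16.9 and 26.1 RPKM, had log2 changes of 0.39 ± 0.19 and -0.15 ± 0.15 in siTsu cells, where neither passed the test.

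Of the scaffold eIF3, 5 subunits carry an eIF name in the table, and none was called. Their log2 changes ran from -0.14 to 0.11 in siAcn and from -0.09 to 0.27 in siTsu cells. eIF3-S9 (subunit b), the highest, was at 309 and 281 RPKM in siGFP, 335 and 300.3 in siAcn, and 361 and 312 in siTsu libraries, where the lowest siTsu value was just above the highest siGFP value. eIF3-S10 (subunit a) had the highest change, from 187 and 185 RPKM in siGFP to 235 and 214 in siTsu, with siAcn at 191 and 168 (log2 change 0.27 ± 0.14 in siTsu, adjusted p = 0.289, limma). For eIF-3p66 and eIF-3p40 (subunits d and h), the siTsu change of -0.09 in each turned above 0 under at least 1 rescaling of the libraries. All 5 subunits were higher in the library numbered 1 than in that numbered 2 in each of the 3 groups. So were 9 of the 24 members, while 8 were lower in all 3, and over all tested genes these shares were 32.1% and 20.4%.

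Among the cap-binding group, the helicase gene eIF-4a overlapped between groups, the cap-binding protein gene eIF-4E lay above the control in siTsu libraries, and eIF4E-6 lay above it in siAcn and below it in siTsu libraries. eIF-4a was at 1258 and 1051 RPKM in siGFP, 1236 and 1133 in siAcn, and 1234 and 1096 in siTsu libraries. All 4 knockdown values lay within the range of the 2 controls. eIF-4E stood at 297 and 404, 381 and 451, and 461 and 550.4 RPKM in the same order. The lowest siTsu value was above both controls and just above the highest siAcn value, and the log2 change in siTsu cells was 0.54 ± 0.21 (adjusted p = 0.175, limma). The scaffold gene eIF4G was at 147 and 177 RPKM in siGFP, 182 and 201 in siAcn, and 146 and 149.6 in siTsu libraries. It was higher in siAcn than in siTsu cells without overlap, but the log2 difference of siTsu minus siAcn, -0.37 ± 0.15, had an adjusted p of 0.328. Its paralog eIF4G2, known in flies for a role in spermatogenesis, lay between 29.3 and 42.3 RPKM, with the 2 siGFP libraries at both ends of that range.

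eIF4E-6, a second gene of the cap-binding family, was the 1 member past the test in any comparison. It was at 2.47 and 2.15 RPKM in siGFP, 5.23 and 4.44 in siAcn, and 1.39 and 1.02 in siTsu libraries. The 3 groups did not overlap, with siAcn at 2.09 and siTsu at 0.523 times the control mean. In siTsu against siAcn cells the log2 difference was -1.40 ± 0.21, with an adjusted p of 0.0479 by limma, where 1.01% of all genes were called and 0.638% were called lower. Against siGFP, the changes of 0.82 ± 0.21 in siAcn (adjusted p = 0.348) and -0.59 ± 0.21 in siTsu cells (adjusted p = 0.151) were not called. The call was lost in each of the 6 fits that left out a library, with adjusted p values from 0.0881 to 0.319. The reads behind the row were inferred from the length that best makes all its values whole, 2039 nt. By that length they are few, 145 and 133 in siGFP, 199 and 121 in siAcn, and 45 and 24 in siTsu. A length of 4078 nt also fits and would mean more reads. Both lengths exceed the 736 nt of the gene in RefSeq, so the row may count sequence beyond that gene model.

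eIF-4B, which assists the helicase, was the lowest member and the only one below the filter of 1 RPKM. It lies on the heterochromatic part of chromosome arm 2R (2RHet in the dm3 build) and was at 0.748 and 0.272 RPKM in siGFP, 0.509 and 0.704 in siAcn, and 0.724 and 1.81 in siTsu libraries. The second siTsu library stood above the other 5, which overlapped. The introns of eIF-4B lay outside the intron test, since the gene did not exceed a mean of 10 RPKM in siGFP. The index of its 12179-nt intron was 12.9 and 48.5% in siGFP, 15.5 and 14.8% in siAcn, and 47.0 and 10.9% in siTsu libraries, from 17 to 66 reads per library. The 2 libraries of siGFP and of siTsu were far apart.

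**Figure D3:**
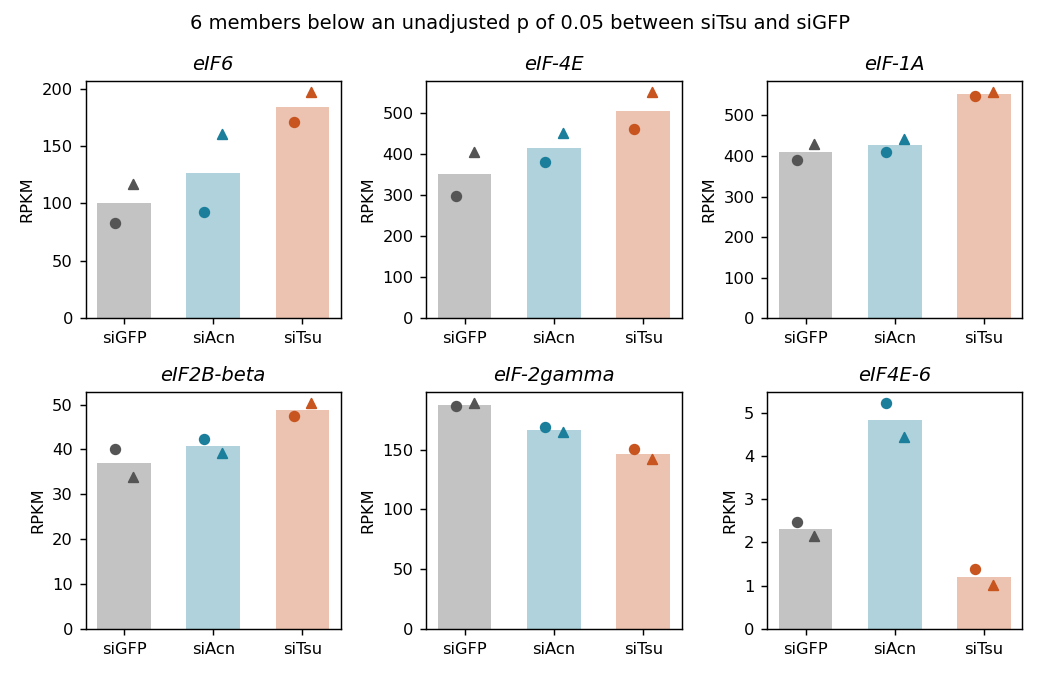
Transcript level (RPKM, axes from 0 and scaled per gene) of the 6 members below an unadjusted p of 0.05 between siTsu and siGFP. Bars are means of 2 libraries, and points are replicate 1 (circle) and replicate 2 (triangle). The siTsu points lie above both siGFP points for eIF6, eIF-4E, eIF-1A and eIF2B-beta, and below them for eIF-2gamma and eIF4E-6.

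The 4 factors of start codon recognition, subunit joining and later steps had siTsu means above those of siGFP, and none was called. eIF6, which keeps the large subunit from joining too early, had the highest change of any member. It was at 83.2 and 117 RPKM in siGFP, 92.9 and 160.1 in siAcn, and 171 and 197 in siTsu libraries. Both siTsu values lay above the other 4, of which the siAcn pair spanned most of the range. The log2 change was 0.89 ± 0.28 in siTsu (adjusted p = 0.125, limma) and 0.30 ± 0.28 in siAcn cells (adjusted p = 0.847). eIF-5A, which has a role in elongation despite its name, was the highest of all members, at 1694 and 1364 RPKM in siGFP, 1936 and 1759 in siAcn, and 1902 and 1476 in siTsu libraries. Both siAcn values were above both controls, whereas the siTsu pair overlapped the controls. The log2 changes of 0.28 ± 0.23 and 0.14 ± 0.23 had adjusted p values of 0.834 and 0.736. eIF5, which activates the GTPase of eIF2, was at 135 and 172 RPKM in siGFP, 176 and 188 in siAcn, and 177 and 196 in siTsu libraries. The control libraries were the lowest, and neither change passed (0.25 ± 0.16 and 0.29 ± 0.16). eIF5B, the subunit joining GTPase, lay between 127 and 187 RPKM, with both extremes in siGFP.

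When the knockdowns were compared directly, 9 members were higher in siTsu than in siAcn cells without overlap and 3 were lower, 39.1% and 13.0% against 20.8% and 29.1% of all genes. The median log2 difference was 0.08, against -0.03 over all genes. At an unadjusted p under 0.05, 1 member (eIF-1A) was higher and 2 (eIF4G and eIF4E-6) were lower, beside 5% and 9.82% of all genes. Only eIF4E-6 was called.

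Genes of the same pathway with other names were not called either. Of 17 listed symbols for further initiation genes, 14 are in the table. Among them are Int6 and Trip1 (eIF3 subunits), CG17737 (eIF1) and pAbp, the poly(A)-binding protein. Only exact names were matched here and below, so an absent symbol may be another name of a gene in the table. limma called 0 of 14 in any comparison, while 0 in siAcn and 3 in siTsu cells (pAbp, CG7414 and pix) fell below an unadjusted p of 0.05, all higher, beside 8.07% of all genes higher in siTsu cells. pAbp was at 998 and 1409 RPKM in siGFP, 1380 and 1960 in siAcn, and 1639 and 2322 in siTsu libraries, a log2 change of 0.72 ± 0.30 in siTsu cells (adjusted p = 0.198). Of 16 listed symbols for regulators, 12 are in the table, including Thor (the fly 4E-BP), the kinases Gcn2 and PEK, and crc (the fly ATF4). Again 0 were called, and 3 (cup, larp and Tor) were lower in siTsu cells at an unadjusted p under 0.05, with log2 changes from -0.48 to -0.39, beside 16.4% of all genes lower. crc, whose product rises when eIF2alpha is phosphorylated, was at 415 and 550.2, 465 and 669.7, and 610.3 and 741 RPKM, with an adjusted p of 0.266 in siTsu cells.

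Among the listed elongation and termination genes, most lay above the control in siTsu cells, while eRF1 lay below it. Of 12 listed symbols, 9 are in the table by that exact name, and limma called 0 of 9. At an unadjusted p under 0.05, 2 (EF2 and Ef1gamma) were higher in siTsu cells, beside 8.07% of all genes. In siAcn cells 1 (eRF1) was lower, beside 4.32% of all genes. The 9 genes had a median log2 change of 0.44 in siTsu and 0.07 in siAcn cells. The siTsu libraries lay above siGFP without overlap for 6 of 9, beside 20% of all genes. They lay below it for 1, eRF1, at 198 and 184 RPKM in siGFP and 165 and 169 in siTsu, beside 35.2% of all genes. EF2, the translocase, was at 1396 and 1773 RPKM in siGFP, 1895 and 2317 in siAcn, and 2736 and 2890.1 in siTsu libraries (log2 change 0.84 ± 0.23 in siTsu, adjusted p = 0.0890). Ef1alpha48D, which delivers tRNAs to the ribosome, was at 5456 and 5282, 6973 and 6402, and 8005 and 7336 RPKM. For both genes every siTsu value was above every siAcn value, and these were above every control.

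Most introns of the members had a low retention index in all groups. The intron retention index expresses the RPKM of an intron in percent of that of the whole gene, library by library, and the listed intervals reach 35 nt into the exon on either side. Of the 22 members above 10 RPKM in siGFP, 21 have listed introns, 120 in all, from 46 to 14374 nt long with a median of 122 nt, and eIF6 has none. For 82 the index stayed under 1% in every library, for 34 its highest value lay between 1 and 10%, and for 4 it exceeded 10%. No read at all fell on 21 of them. Of all introns of genes above 10 RPKM, 9.94% exceeded 10% in a library, against 3.33% of the members' introns. These sets were not matched for the level of their genes, and the members were abundant (median of 159 RPKM in siGFP). By position in the BDGP6 annotation, whose intron lengths matched all 129, 88 lie in coding sequence, 36 in 5′ leaders, 4 in 3′ trailers and 1 in either, and 51 overlap another listed form.

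All 4 introns above 10% are overlapping forms at the 5′ end of eIF2B-delta, on the plus strand of chromosome arm 2R in the dm3 build. The first 3 start at 19274146 as intron 1 in the 5′ leader and end at 19274312 (167 nt), 19274464 (319 nt) or 19274529 (384 nt). The other runs from 19274351 to 19274529 (179 nt) as intron 2 of a form that is spliced inside the coding sequence. The index of the 319-nt form was 23.3 and 15.7% in siGFP, 22.4 and 17.8% in siAcn, and 9.70 and 7.79% in siTsu libraries. It rested on 141 and 122, 98 and 62, and 35 and 25 reads. Thus Acn-depleted cells overlapped the control, and both tsu-depleted libraries lay below all others. The 179-nt form was at 17.3 and 10.3%, 13.2 and 14.8%, and 7.80 and 5.36%, again with siTsu lowest. The log2 changes of the 4 forms were -1.19, -1.13, -1.12 and -1.03 in siTsu against siGFP cells, with adjusted p values from 0.113 to 0.223 by limma, so none was called. The forms entered the test only through siGFP and siAcn libraries, since every siTsu value was below 10%, and such a filter favours a lower siTsu index. All 4 fell below an unadjusted p of 0.05, as did 6.85% of all introns tested in the lower direction. In siAcn cells they lay between -0.04 and 0.06, and none fell below it (5.86% of all introns in the lower direction). Against siAcn, the 4 forms were also lower in siTsu cells, with log2 differences from -1.18 to -1.09, unadjusted p values from 0.00586 to 0.0255 and adjusted ones from 0.114 to 0.215, where 8.67% of all introns were lower at an unadjusted p under 0.05, 0.281% were called higher and 0.246% lower. Over the 2848 introns tested, 2.56% were called higher and 0.211% lower in siTsu cells, and 1.33% higher and 0% lower in siAcn cells. The level of the eIF2B-delta transcript changed by 0.12 ± 0.16 on the log2 scale in siTsu cells. The 2 other listed introns of the gene, 59 and 56 nt long, stayed under 2% in every library.

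**Figure D4:**
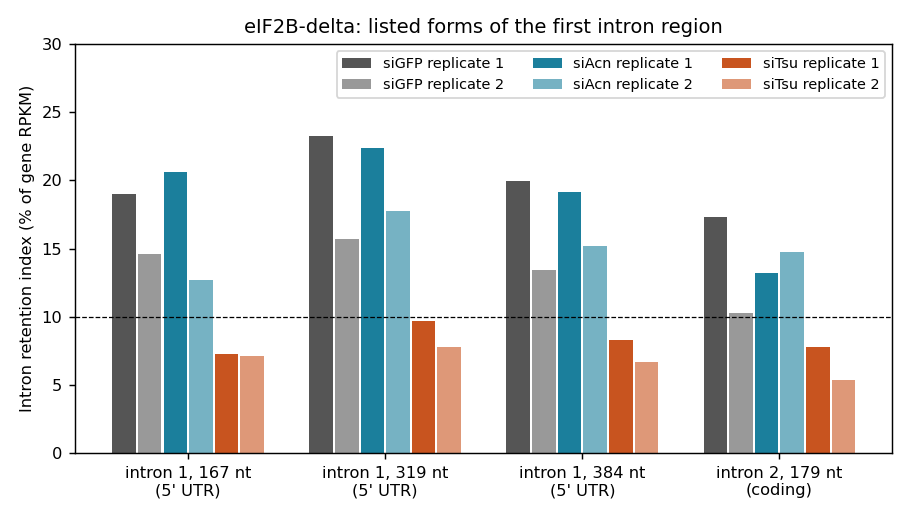
Intron retention index (intron RPKM as a percentage of the gene RPKM) of the 4 overlapping listed forms at the 5′ end of eIF2B-delta, with 1 bar per library. The dashed line marks the 10% needed to enter the test. All siGFP and siAcn bars lie above it, and all siTsu bars lie below it, from 9.70% for the 319-nt form in replicate 1 to 5.36% for the 179-nt form in replicate 2.

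Together with the 4 forms above, 42 introns of 14 members had at least 20 reads in the 2 siGFP libraries, and they are given as a description. This minimum was chosen after the values were seen and favours introns that are high in siGFP. The index was lower in siTsu than in siGFP cells for 39 of 42 (92.9%). Of the 8752 introns of all genes that meet the same minimum, 67.5% were lower. The median ratio was 0.578, against 0.810 over all such introns. Both siTsu libraries lay below both controls for 31 of the 42 (73.8%), against 37.7% of all such introns. In siAcn cells the index was lower for 24 of 42 (57.1%), against 61.1% of all such introns. The median ratio there was 0.917, against 0.893 over all. Both siAcn libraries lay below the controls for 13 of 42 (31.0%), against 28.9%. The RPKM of the introns themselves had a median ratio of 0.671 in siTsu cells, against 0.708 over all. The 42 are not independent, since 11 belong to eIF-4E, where most listed forms overlap and share reads. Overlapping forms of eIF2B-delta, eIF5, eIF5B, eIF-5A and eIF-4a are also counted separately. Most of the 42 overlap another listed form, which limits what the counts above can show.

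The long 5′ leader region of eIF-4E gave the most intron reads. Its 549-nt form (3L, 9394468 to 9395016, minus strand) was at 4.13 and 2.74% in siGFP, 4.37 and 3.68% in siAcn, and 2.41 and 2.32% in siTsu libraries, from 218 and 208, 192 and 137, and 109 and 91 reads. The siTsu indices were below the others, and the siAcn indices were within the control range or above it. The RPKM of this form was not lower in siTsu cells. It was at 12.2 and 11.1 in siGFP, 16.6 and 16.6 in siAcn, and 11.1 and 12.8 in siTsu libraries. The lower siTsu index thus went with the higher level of the whole gene, and the siTsu libraries are less deep. The 581-nt leader intron of eIF-5A (2R, 19945426 to 19946006, plus strand) was at 0.378 and 0.308%, 0.272 and 0.229%, and 0.117 and 0.018% in the same order, so that both knockdowns were below the control. In the second siTsu library 2 reads fell on it, against 83 in the second control. The 368-nt first intron of eIF5 (X, 15885416 to 15885783, minus strand) was at 0.645 and 0.832%, 0.838 and 0.456%, and 0.082 and 0.101%, with 1 read in each siTsu library. The first intron of eIF-3p66 (3R, 19506112 to 19506233, 122 nt, plus strand) was at 2.81 and 1.56%, 1.98 and 1.25%, and 0.840 and 0.574%. For each of these introns siTsu had the lowest index, and no test was made.

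**Figure D5:**
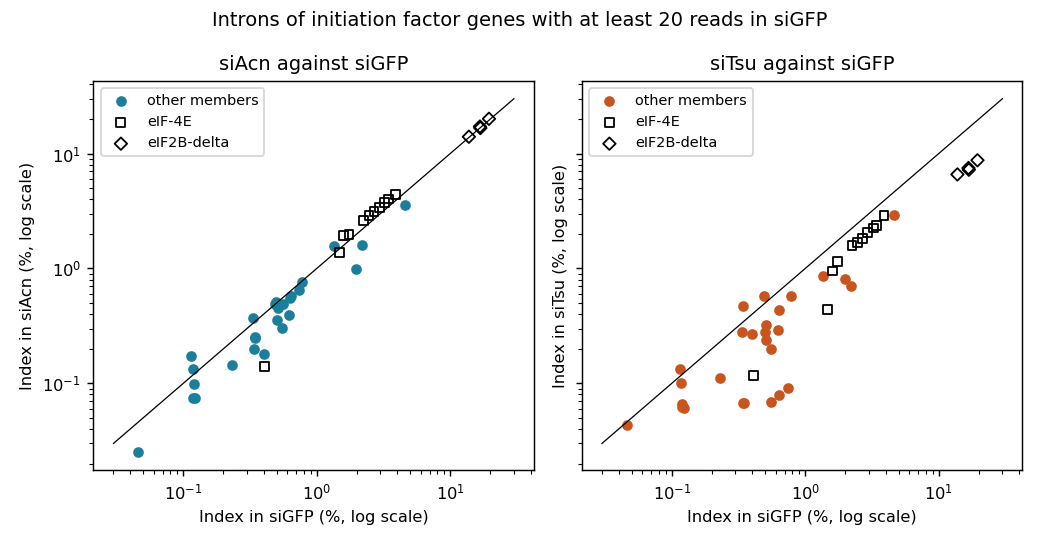
Mean intron retention index (%, log axes) of the 42 introns of initiation factor genes with at least 20 siGFP reads, in siAcn (left) and siTsu cells (right) against siGFP. The line marks equal values; squares are forms of eIF-4E and diamonds forms of eIF2B-delta. In the siTsu panel 39 of 42 points lie below the line, and in the siAcn panel 24 of 42. Over the introns of all genes with that minimum, 67.5% and 61.1% were lower.

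The long introns of members above 10 RPKM had low indices as well. The largest, of 14374 nt in eIF5B (3L, 3429084 to 3443457), was at a mean of 0.232% ± 0.027 in siGFP, 0.143% in siAcn and 0.112% ± 0.025 in siTsu libraries (SD, n = 2), and the mean level of the eIF5B transcript was 157, 155 and 162 RPKM. The 6552-nt intron of eIF-1A (3R, 14100864 to 14107415) was at a mean of 0.120% in siGFP libraries and 0.066% in those of siTsu. Of the 42 introns with at least 20 siGFP reads, 2 (4.76%) had an index higher in both siTsu libraries than in both controls. This compares with 14.5% of all introns with that minimum. Both belong to eIF4G on chromosome 4. The 3883-nt intron of eIF4G was at 0.490% ± 0.001 in siGFP and 0.571% ± 0.002 in siTsu. The 580-nt intron was at 0.340% ± 0.035 and 0.468% ± 0.096 (SD, n = 2). It had 21 siGFP reads in all and 6 reads in each siTsu library.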

How the data were processed

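The strand-specific polyA libraries were read as 50-nt pairs. After quality trimming, the authors counted only uniquely placed reads on the fly genome, its transcripts and its introns. Bowtie, GSNAP and dm3 are given in the submitters' processing notes, without versions. The deposited values are RPKM per gene (8335) and per intron (60779), not counts, for 6 libraries (2 per group). All value columns were used (0 left out), and rRNA-depleted libraries were not analysed here.

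Reads behind the values were recovered from their steps (all intron values whole within 0.1 read). The 7362 genes averaging 1 RPKM or more were tested on log2(RPKM + 1), which understates changes of low genes. Introns were tested on log2 of the index with 0.1 RPKM added, where the gene exceeded a mean of 10 RPKM in siGFP and the index 10% in any library (2848). The fits used limma 3.58.1 under R 4.3.3, with all 3 groups and a moderated, trended variance, and Benjamini-Hochberg adjustment over all features at 0.05. The scripts were tested on simulated data. Tables and plots used Python 3.11.15, numpy 2.4.6, pandas 2.3.3 and matplotlib 3.10.9. RefSeq and BDGP6 gave names and lengths only, and no coordinates were converted.

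Members and gene lists were chosen with earlier results of these data known. Every member was accounted for. By the rule for named genes, values were printed for members past the test, for the largest rise and fall per comparison and for the highest member of each role, and other members shown were chosen after their values were seen. Alternatives varied the pseudocount, filters, scaling, groups in the fit, trend and overlap of introns, added a replicate block, and omitted 1 library at a time. Alternatives added after seeing the data were introns with at least 20 siGFP reads, recovered reads, and ratios within a replicate number.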

Additional observations from a re-analysis of the deposited data

Results flagged for a closer look

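The change of eIF4E-6 differed between the 2 knockdowns in a test of the difference itself. The log2 difference of siTsu minus siAcn was -1.40 ± 0.21 (SE), with an adjusted p of 0.0479 by limma, with the 2 siAcn libraries at 5.23 and 4.44 RPKM and the 2 siTsu libraries at 1.39 and 1.02 RPKM. Over its alternatives the adjusted p ran from 0.00502 to 0.319, and the sign was negative in each.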

How the results depend on the processing

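The count of genes called in siAcn against siGFP cells, 5, was 2 with a mean of at least 10 RPKM, 3 with only the 2 groups compared, 10 without the trend, and 0 to 1 without each library in turn. In siTsu against siGFP, 271 became 129 with at least 10 RPKM and 6 (without siTsu replicate 2) to 369 without a library. In siTsu against siAcn, 74 became 41 with a pseudocount of 0.1 RPKM, 40 without a filter, 18 with at least 10 RPKM, 5 with only 2 groups, and 1 to 9 without a library. For introns in siAcn against siGFP, 38 became 14 with 10% required in siGFP, 0 without the 10% filter (2389 at an unadjusted p under 0.05, limma), 94 for genes above 20 RPKM, 2 for introns that overlap no other, 1 with only 2 groups, and 0 to 9 without a library. In siTsu against siGFP, 79 became 37, 0 (3592), 122, 4 and 38 under the same settings, and 0 to 38 without a library. In siTsu against siAcn, 15 became 28 with 0.5 RPKM added, 0 without the 10% filter (2633), 79 above 20 RPKM, 0 without overlaps, 0 with 2 groups, and 0 without any 1 library. No form of the eIF2B-delta intron is left among introns that overlap no other.

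The 1 member call, eIF4E-6, became 0 with a pseudocount of 0.1 RPKM (adjusted p = 0.0501), with only 2 groups (0.0856), with at least 10 RPKM, which removes the gene, and without any 1 library. Deviations from the group means of same-numbered libraries correlated over genes at 0.514 (siGFP and siAcn), 0.443 (siGFP and siTsu) and 0.634 (siAcn and siTsu), but no label says what a number shares. With the replicate block, limma called 297, 1859 and 664 genes in the 3 comparisons and 3 introns in siTsu against siAcn. It called 6 of 23 members in siTsu against siGFP, beside 1859 of 7362 genes. These were eIF6, eIF-4E, eIF-1A, eIF-2beta and eIF2B-beta (higher) and eIF-2gamma (lower), with adjusted p from 0.00413 to 0.0412 by limma. In siTsu against siAcn it called 2 of 23 (eIF4E-6 and eIF6), beside 664 of 7362 genes.

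Over all alternatives, 12 of 23 members changed sign in siAcn against siGFP, 11 in siTsu against siGFP and 10 in siTsu against siAcn, none with an absolute log2 change above 0.302. Ranges without a library are given here for a chosen part of the members named above, and other members crossed 0 as well. In siAcn cells, changes crossed 0 for eIF-1A (-0.0080 to 0.13), eIF-2beta (-0.31 to 0.56), eIF2B-delta (-0.045 to 0.23), eIF-4a (-0.088 to 0.17) and eIF6 (-0.087 to 0.69). They also did so for the eIF2B-delta introns of 167 nt (-0.39 to 0.30), 319 nt (-0.22 to 0.34), 384 nt (-0.22 to 0.34) and 179 nt (-0.31 to 0.44). In siTsu cells, changes of the chosen members crossed 0 for eIF2B-delta (-0.025 to 0.26), eIF-4a (-0.11 to 0.15), eIF-5A (-0.042 to 0.32) and eIF4G (-0.26 to 0.0085). Rescaling changed the sign for eIF3-S10 in siAcn and for eIF-3p40 and eIF-3p66 in siTsu against siGFP, and for eIF-3p40 and eIF-4a in siTsu against siAcn. The cause of these differences was not tested. Fits without a library assume that the lone library varies like the other groups. With 2 libraries per group, an uncalled change is not shown to be absent.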

Other observations

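Paralogs of the cap-binding protein without a row in the gene table used here have introns in the intron table. eIF4E-3 has 5, eIF4E-4 has 3, eIF4E-5 has 2 and eIF4E-7 has 1. Summed over the 6 libraries, 0, 0, 1 and 0 reads fell on them.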
